A study of Mus musculus with 3 samples.

Results

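The genes described here encode 10 subunits of the Polycomb repressive complexes, chosen by name as subunits of PRC2 (Ezh2, Eed, Suz12 and Mtf2) and of PRC1 (Phc1, Ring1, Rnf2, Bmi1, Pcgf6 and Cbx7). They are 10 of the 18193 genes that could be named on the array, and 30 of its 34945 probe sets with a single gene symbol. These 10 were chosen with earlier results of these data known, so their counts beside all genes are descriptive only. Messenger RNA was measured on day 7 in mouse embryoid bodies, which are clusters of embryonic stem cells that differentiate in suspension. The first group, RQ, carried human BRCA1 with a substitution that the series design gives as R1699Q and the array's own label as R1669Q. The second, MI, carried human BRCA1 with M1652I, and the third, WT, carried wild-type human BRCA1. All cells were of strain 129S7/SvEv Brd-Hprt b-m2, and feeder cells had been removed by letting them settle on gelatin before the bodies were formed. The labels do not say whether each line was 1 clone or whether mouse Brca1 was still present. Each group was hybridized to 1 Affymetrix array, so no difference below has a replicate check and no test could be made. "Higher" and "lower" speak of these 3 arrays.

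Polycomb complexes keep developmental genes silent. PRC2 methylates histone H3 (the H3K27 mark), PRC1 attaches ubiquitin to histone H2A, and each complex can bind the mark of the other. In embryonic stem cells both sit on CpG-rich promoters of lineage genes, and the subunits that fill a given place in the complex change when the cells differentiate: Cbx7 is the main chromodomain subunit of stem cells, and Mtf2 and Pcgf6 are abundant there.

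On the RQ array 8 of the 10 genes read above WT, led by Mtf2 at 2.82-fold. The MI array was split, with Phc1 2.81-fold, Cbx7 1.68-fold and Eed 1.49-fold lower than WT and Mtf2 1.58-fold and Suz12 1.34-fold higher. After the correction for signal level described below, Phc1 was 2.19-fold, Cbx7 1.76-fold and Eed 1.20-fold lower. Mtf2 was then 2.06-fold and Suz12 1.74-fold higher. The sizes for Mtf2 and Cbx7 in MI were not shared by their other probe sets. Ring1 and Bmi1 lay at the edge of detection on every array.

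Values are the deposited log2 signals, and a log2 difference of 1 is a 2-fold change. A gene was read in a comparison where the higher of its 2 arrays reached 6.31, the median of all probe sets, and where a gene had several probe sets, the 1 with the strongest average signal stood for it. All 10 genes passed in each comparison, but Ring1 and Bmi1 did so by 0.08 and 0.14 at their highest array, and neither reached the 75th percentile (6.92) on any array. Signals of different probe sets are not compared with each other, although the marker sums below add them up.

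The arrays were alike in mean (6.60 each) but not in spread, with an SD over probe sets of 1.17 in RQ, 1.06 in MI and 1.17 in WT. Strongly expressed genes therefore read lower on the MI array as a class, with a median difference from WT of -0.36 for the 635 genes at a mean level of 9 to 10 and 0.10 for the 8610 genes at 6 to 7. Since several subunits lie at 9 to 11, their MI differences are also given after subtracting a smooth curve (lowess) of difference on level over all genes. The corresponding medians in RQ minus WT were 0.04 and -0.01. The array probes do not read the human BRCA1 that differs between the lines, and mouse Brca1 read 6.80 in RQ, 6.96 in MI and 6.81 in WT, so the labels could not be checked on the altered gene.

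Markers of an embryoid body's cell types were read beside the subunits. Of 22 pluripotency genes, 22 reached the filter in RQ, 21 in MI and 20 in WT, and their summed linear signal was 42144 in RQ, 26935 in MI and 29144 in WT. Such a sum leans on its strongest gene, Dppa5a, at 13.37 in RQ, 13.20 in MI and 13.52 in WT. By gene, 18 of 22 were above WT in RQ (51.7% of all genes) and 10 of 21 in MI (59.5%). In MI 4 were at least 2-fold higher than WT (0.516%) and 3 at least 2-fold lower (2.44%), so the MI sum does not describe the list. Of 19 genes of extraembryonic endoderm, 9 reached the filter in RQ, 11 in MI and 15 in WT, with sums of 2287 in RQ, 2723 in MI and 16764 in WT. The 9 mesoderm and blood genes (sums of 792 in RQ, 829 in MI and 734 in WT) and the 6 neurectoderm genes (683 in RQ, 652 in MI and 685 in WT) were low on all 3 arrays, and at most 3 and 2 genes of these lists reached the 75th percentile on any array. Of the 9 fibroblast genes, which feeder cells would also carry, 5 reached the filter in RQ, 7 in MI and 4 in WT. Their sums were 804 in RQ, 3950 in MI and 877 in WT. Of the 7 read in MI against WT, 4 were at least 2-fold higher (0.516% of all genes), so the MI sum does not speak for the whole list. In such bulk RNA, fewer cells of a type and less RNA per cell cannot be told apart, and the part of these marker differences in the subunit values was not tested.

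The promoters of 3 members are shown because these genes carry the main differences: Mtf2 in RQ, and Phc1 and Cbx7 in MI. Each window holds 250 bases before and 50 after the RefSeq start on build GRCm38.p6, written 5′ to 3′ on the gene's strand, and capitals mark CG dinucleotides. The Mtf2 window is chr5:108065424-108065723 on the plus strand, the Phc1 window chr6:122340178-122340477 on the minus strand, and the Cbx7 window chr15:79932597-79932896 on the minus strand.
Mtf2: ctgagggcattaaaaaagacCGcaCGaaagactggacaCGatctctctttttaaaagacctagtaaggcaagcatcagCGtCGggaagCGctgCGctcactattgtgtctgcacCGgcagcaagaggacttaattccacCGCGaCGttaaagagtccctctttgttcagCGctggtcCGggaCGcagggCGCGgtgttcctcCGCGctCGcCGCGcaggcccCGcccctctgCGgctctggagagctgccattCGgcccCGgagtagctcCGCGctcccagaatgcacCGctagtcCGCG
Phc1: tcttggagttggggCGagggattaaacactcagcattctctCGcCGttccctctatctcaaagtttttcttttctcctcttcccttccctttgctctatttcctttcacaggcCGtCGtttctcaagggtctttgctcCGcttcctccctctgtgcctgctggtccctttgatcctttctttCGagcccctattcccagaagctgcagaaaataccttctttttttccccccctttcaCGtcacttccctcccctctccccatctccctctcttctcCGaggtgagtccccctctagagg
Cbx7: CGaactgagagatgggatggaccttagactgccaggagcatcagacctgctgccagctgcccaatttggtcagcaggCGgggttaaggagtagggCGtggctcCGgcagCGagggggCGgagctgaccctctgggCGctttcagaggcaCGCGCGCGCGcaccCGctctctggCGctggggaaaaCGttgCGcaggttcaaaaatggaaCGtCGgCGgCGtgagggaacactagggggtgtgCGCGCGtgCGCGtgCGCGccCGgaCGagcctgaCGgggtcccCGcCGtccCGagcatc

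The Mtf2 window holds 30 CG dinucleotides and the Cbx7 window 33, against 9 in the Phc1 window and a median of 7 over the 32544 distinct windows of that length in the RefSeq table. All 10 members had a window there, Mtf2 with a second 1 that holds 2 CG. In the main windows of the other members the count ran between 17 for Eed and 41 for Suz12, so Phc1 had the fewest CG. The letters GGGCGG, the GC box of SP and KLF factors, were searched on both strands and occur in the main window of 7 of 10 members, including Mtf2 and Cbx7 but not Phc1, against 35.9% of all windows. CCAAT, the NF-Y box, occurs in 4 of 10 (37.4% of all windows), TATAAA in 0 of 10 (13.6%), and the E2F-type letters TTTGGCGC in 1, that of Ezh2 (0.519%). Matches of different motifs did not overlap, and 2 pairs of GC boxes in the Bmi1 window overlapped each other. These matches describe the letters only.

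**Figure D1:**
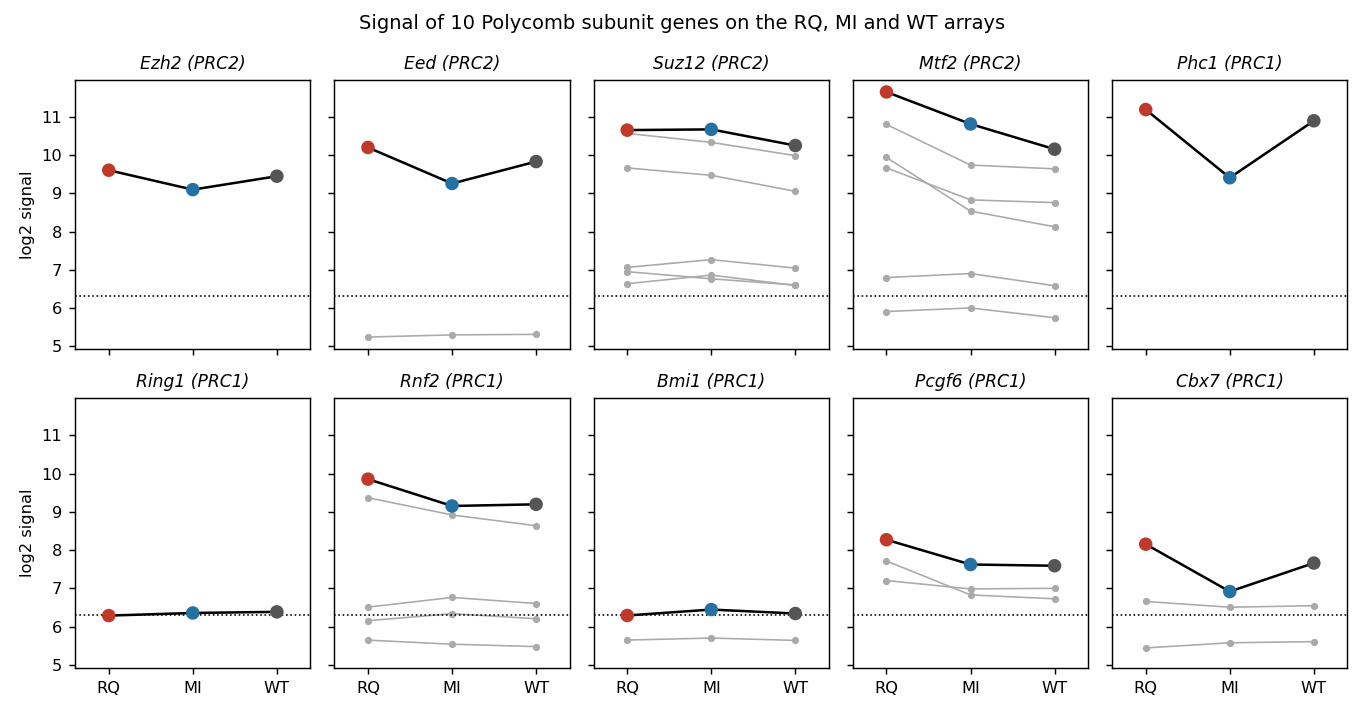
Log2 signal (vertical axis) of each subunit gene on the RQ, MI and WT arrays (horizontal axis). Large points joined by a black line are the probe set used for the gene, grey points are its other probe sets, and the dotted line is the level filter of 6.31. Mtf2 stands highest in RQ, Phc1 and Cbx7 dip in MI, and Ring1 and Bmi1 lie on the filter line.

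Within the catalytic core of PRC2, Ezh2 and Eed lay less than 1.5-fold apart between RQ and WT. Ezh2, the methyltransferase, read 9.60 in RQ, 9.10 in MI and 9.45 in WT. Eed, the subunit that binds methylated H3K27, read 10.20 in RQ, 9.26 in MI and 9.83 in WT. Both were highest in RQ and lowest in MI, with differences from WT of 0.16 and 0.37 in RQ and of -0.35 and -0.57 in MI. After the correction for level the MI differences were -0.07 for Ezh2 and -0.27 for Eed. Ezh2 in MI is thus about where genes of its level lay on that array. The other Eed probe set read 5.24 in RQ, 5.30 in MI and 5.31 in WT, below the filter.

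Suz12, the scaffold that holds PRC2 together, was like Eed in RQ but differed from Ezh2 and Eed in MI. It read 10.65 in RQ, 10.67 in MI and 10.25 in WT, so both mutants lay above WT by nearly the same amount (0.40 in RQ and 0.42 in MI). All 6 Suz12 probe sets were above WT in both mutants, with RQ differences between 0.02 and 0.61 and MI differences between 0.16 and 0.42. The 3 with a signal above 9 differed by 0.40, 0.58 and 0.61 in RQ and by 0.42, 0.35 and 0.42 in MI. Against the falling trend of its level the MI difference became 0.80, a 1.74-fold higher value. The probe set used for Suz12 ends in _s_at, which marks probes that can match several transcripts, and without such probe sets the gene differed by 0.61 in RQ and 0.42 in MI.

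Mtf2, which binds unmethylated CpG-rich DNA and brings PRC2 to its targets, had the widest range of the PRC2 members. It read 11.65 in RQ, 10.81 in MI and 10.15 in WT, so the 3 arrays were stepped. The difference from WT was 1.495 in RQ, the 44th highest of 12226 genes, and 0.66 in MI, the 172nd highest of 12786. After the correction for level these became 1.54 and 1.04, so that MI passed 2-fold too. Among the other 3 Mtf2 probe sets with a signal above 8 the RQ difference was 1.16, 0.91 and 1.81. The MI differences of these 3 were smaller, 0.10, 0.07 and 0.41. The reading of Mtf2 as higher in RQ is therefore shared by 4 probe sets, 3 of them past 2-fold, while the size of its MI difference rests on the 1 probe set used. The remaining 2 probe sets, at or below 6.90 on every array, differed by 0.21 and 0.16 in RQ and by 0.32 and 0.26 in MI.

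Of the PRC1 members, Phc1 gave the largest difference in MI. Phc1 is the Polyhomeotic subunit, whose SAM domain joins PRC1 complexes into chains. It read 11.19 in RQ, 9.41 in MI and 10.90 in WT, so that RQ and WT lay close together and MI well below both. The difference from WT was -1.49 in MI, the 86th lowest of 12786 genes, and 0.29 in RQ. The correction for level left -1.13, a 2.19-fold lower value. RQ minus MI was 1.78, the 17th highest of 12800 genes, and 1.41 after correction. A single probe set reads Phc1, so no second reading was at hand.

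Cbx7, the chromodomain protein that binds methylated H3K27, had the same order of arrays as Phc1. It read 8.16 in RQ, 6.92 in MI and 7.66 in WT. It differed from WT by 0.49 in RQ and -0.74 in MI, and by 1.24 between RQ and MI, the 101st highest value of that comparison. Because its level lies where the MI trend is near 0, the correction changed the MI difference only to -0.81. The other 2 Cbx7 probe sets did not share the size of these differences. The first read 6.66 in RQ, 6.51 in MI and 6.55 in WT, the same order in small steps near the filter. The second lay below the filter on every array (5.45 in RQ, 5.58 in MI and 5.61 in WT).

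The ubiquitin ligase Rnf2 (RING1B) and the non-canonical subunit Pcgf6, a partner of Mga and Max in a PRC1 variant that silences germline genes, were higher in RQ, with MI near WT. Rnf2 read 9.86 in RQ, 9.16 in MI and 9.20 in WT. Pcgf6 read 8.27 in RQ, 7.63 in MI and 7.59 in WT. RQ stood above WT by 0.66 for Rnf2 and 0.68 for Pcgf6, while MI differed from WT by -0.04 and 0.03. The second Rnf2 probe set with a signal above 8 differed from WT by 0.73 in RQ and 0.28 in MI, and the other Pcgf6 probe sets by 0.99 and 0.20 in RQ and by 0.10 and -0.02 in MI. After the correction for level Rnf2 in MI stood at 0.23 and Pcgf6 at 0.02. The other 3 Rnf2 probe sets, at 6.76 or below, ranged between -0.09 and 0.17 in RQ.

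Ring1 (RING1A), the paralogue of Rnf2, and Bmi1, a subunit of canonical PRC1, could hardly be read. Ring1 was 6.29 in RQ, 6.36 in MI and 6.39 in WT, and Bmi1 was 6.29 in RQ, 6.45 in MI and 6.34 in WT. The second Bmi1 probe set was lower still (5.65 in RQ, 5.70 in MI and 5.64 in WT). At this signal a difference of either gene would be compressed towards 0, and their values do not show that their RNA was equal in the 3 lines.

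Against WT, 8 of the 10 subunits were above 0 in RQ, all but Ring1 and Bmi1, with a median difference of 0.39. Over all 12226 genes read, 51.7% were above 0 and the median was 0.01. Subunit genes outside the 10 did not share this count, with 4 of 8 other PRC2 genes and 4 of 9 other PRC1 genes above 0. A single member (1 of 10, Mtf2) was 2-fold or more higher in RQ, against 1.68% of all genes, and 0 of 10 were 2-fold lower, against 1.49%. At 1.5-fold, 3 of 10 were higher, namely Mtf2, Pcgf6 and Rnf2, against 6.90% of all genes. The members of PRC2 and PRC1 had about the same median (0.39 each), and Mtf2 stood apart from the other 9, which lay between -0.10 and 0.68.

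**Figure D2:**
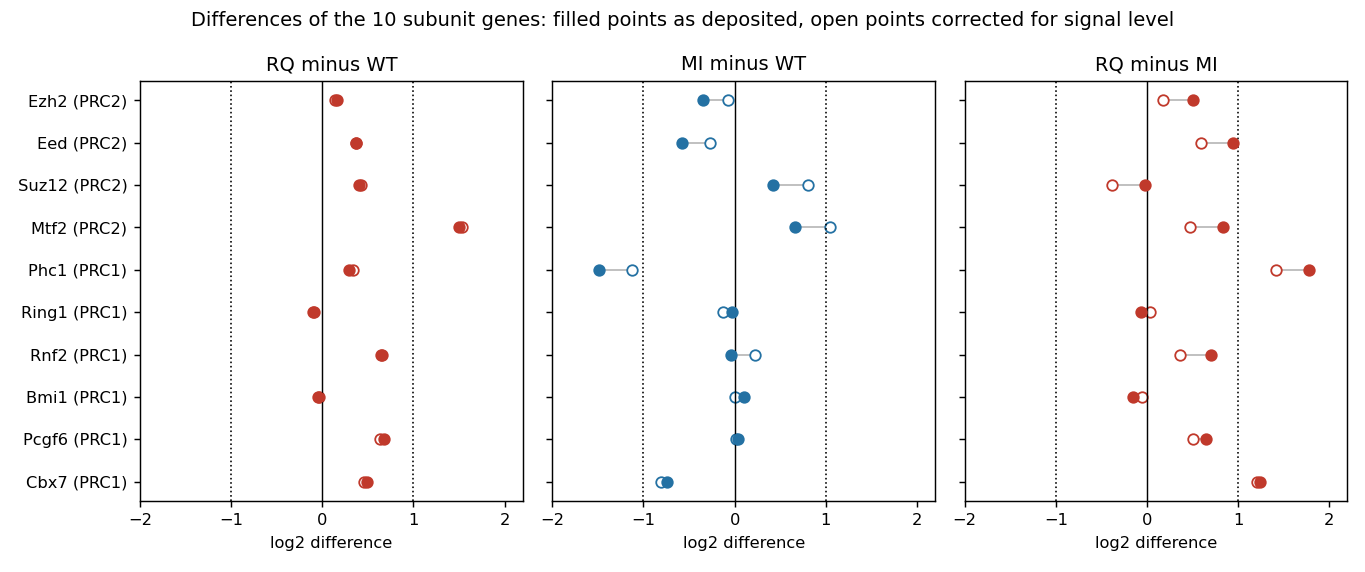
Log2 differences (horizontal axis) of the 10 subunit genes for RQ minus WT, MI minus WT and RQ minus MI. Filled points are the deposited values, open points the values after the lowess correction for level, and dotted lines mark 2-fold. Mtf2 is past the line in RQ minus WT (1.495), and Phc1 is beyond it on the lower side in MI minus WT with and without the correction (-1.13 and -1.49).

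In MI the set had no common direction. Against WT 4 of 10 were above 0 and 6 below, with a median of -0.04, where all 12786 genes read had 59.5% above 0 and a median of 0.06. Phc1 was the member at least 2-fold lower (1 of 10, against 2.44% of all genes), and 0 of 10 were 2-fold higher (0.516%). At 1.5-fold Mtf2 was higher (1 of 10, against 1.92%) and Phc1 and Cbx7 were lower (2 of 10, against 8.04%). With the correction for level 5 were above 0 and 5 below, where 50.4% of all genes were above 0. Mtf2 was then 2-fold higher (1 of 10, against 0.618% of all genes) and Phc1 2-fold lower (1 of 10, against 1.76%). The PRC2 median was then 0.37 and the PRC1 median -0.06, against 0.04 and -0.04 as deposited. No PRC2 member lay near 0.37, since Suz12 and Mtf2 stood at 0.80 and 1.04 and Ezh2 and Eed at -0.07 and -0.27. The medians therefore do not set the complexes apart.

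**Figure D3:**
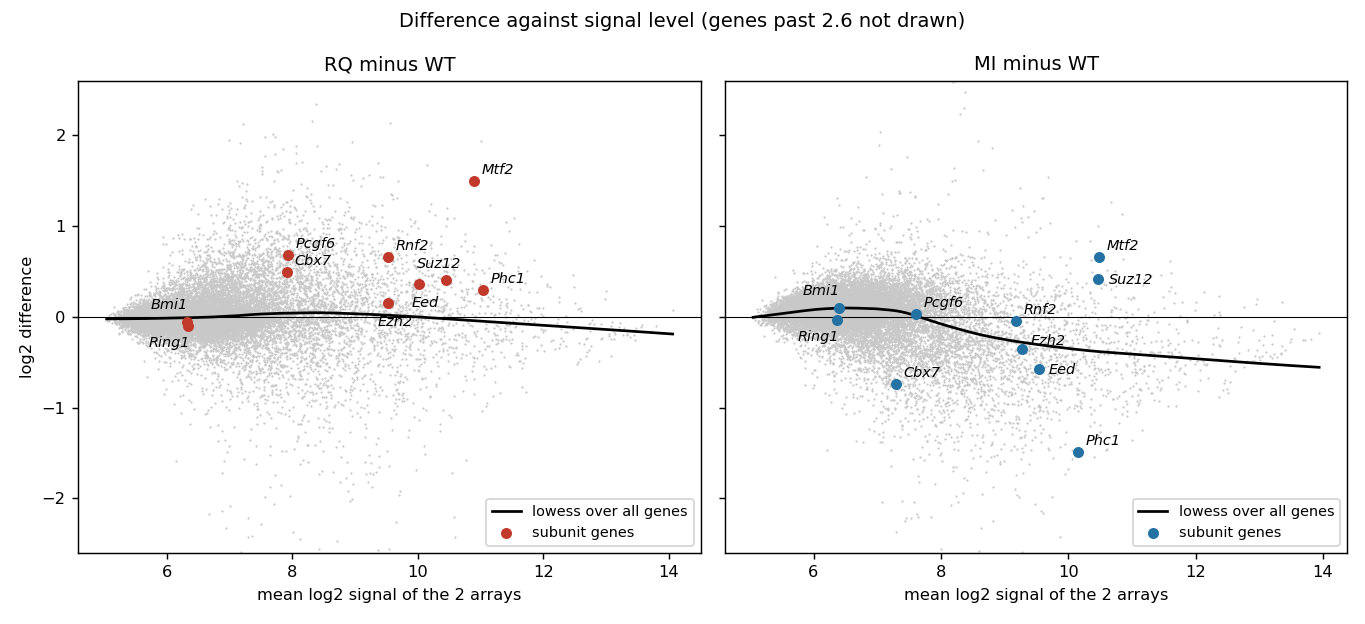
Log2 difference (vertical axis) against the mean log2 signal of the 2 arrays (horizontal axis) for all genes in grey and the 10 subunit genes in colour, RQ minus WT on the left and MI minus WT on the right. The black lowess curve stays near 0 in RQ and falls with level in MI, where Mtf2 and Suz12 lie above it and Phc1 and Cbx7 below it.

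Between the mutants, 7 of 10 subunits were higher in RQ than in MI, with a median difference of 0.67, while 44.0% of all 12800 genes read were above 0. That share is not matched for level: genes at a mean level of 9 to 10 had a median of 0.39, and those at 6 to 7 one of -0.10. Phc1 and Cbx7 were at least 2-fold higher in RQ (2 of 10, against 1.98%), 0 of 10 were 2-fold lower (0.508%), and 6 of 10 were at least 1.5-fold higher (9.54%). The correction for level lowered the median to 0.41, with 8 of 10 above 0 against 49.5% of all genes. It left Phc1 and Cbx7 past 2-fold (2 of 10, against 1.14%) and 3 of 10 past 1.5-fold, with Eed at 0.59 joining them (6.41% of all genes). Suz12 went the other way, at -0.02 as deposited and -0.39 after the correction. These values share arrays with the comparisons above, so they add no separate evidence.

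The nearest genes in pattern were sought among 12971 genes, by Euclidean distance of the RQ minus WT and MI minus WT differences, which rest on the same 3 arrays. For Mtf2 they were Kat6b, a histone acetyltransferase (1.54 in RQ and 0.60 in MI, distance 0.076), Arrdc3, an arrestin-like adaptor (1.501 in RQ and 0.58 in MI, distance 0.081), and Resf1, a retroelement silencing factor (1.51 in RQ and 0.58 in MI, distance 0.085). For Phc1 they were the homeobox gene Otx2 of epiblast and anterior neural cells (0.17 in RQ and -1.37 in MI, distance 0.17), the ubiquitin ligase scaffold Cul4b (0.12 in RQ and -1.38 in MI, distance 0.20) and Mymx (0.14 in RQ and -1.30 in MI, distance 0.24). Otx2 read 7.52 in RQ, 5.98 in MI and 7.35 in WT. The second Cul4b probe set differed, at -0.65 in RQ and -0.68 in MI. The other Kat6b probe set that reached the filter did not share the Kat6b values either, at 0.12 in RQ and 0.27 in MI.

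Other PRC2 genes were read from a list that also holds the accessory subunits. Of 8 on the array, all of which passed the filter, 1 was 2-fold higher (1.68% of all genes) and 0 were 2-fold lower (1.49%) in RQ than in WT, and the median was -0.03. That gene was Jarid2, which helps PRC2 bind chromatin in stem cells. It read 11.06 in RQ, 9.69 in MI and 9.86 in WT, with RQ well above the other arrays, and its 3 probe sets differed from WT by 1.197, 1.57 and 1.43 in RQ and by -0.17, -0.09 and 0.02 in MI. Aebp2, which is found with Jarid2 in a PRC2 variant, differed by 0.79 in RQ and 0.29 in MI, and Epop, another accessory subunit of stem cells, by 0.72 in RQ and -0.16 in MI. The other 3 Aebp2 probe sets that reached the filter were divided, at 1.05, 1.25 and -0.16 in RQ. On the lower side, Ezh1, the alternative methyltransferase of differentiated cells, differed by -0.55 in RQ and -0.36 in MI. The histone-binding Rbbp7 differed by -0.49 in RQ and -0.58 in MI and Rbbp4 by 0.01 in RQ and -0.59 in MI, and the MI values became -0.14 and -0.12 after the correction. The Rbbp4 probe sets were not alike, since 1 of the 4 read 6.16 in RQ, 6.13 in MI and 7.75 in WT, beyond 2-fold lower in both mutants (-1.59 in RQ and -1.62 in MI). Phf19, an Mtf2 homologue, was the lowest in RQ relative to MI (-0.19). In MI 0 of the 8 were 2-fold higher than WT (0.516% of all genes) and 0 were 2-fold lower (2.44%), with a median of -0.17.

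**Figure D4:**
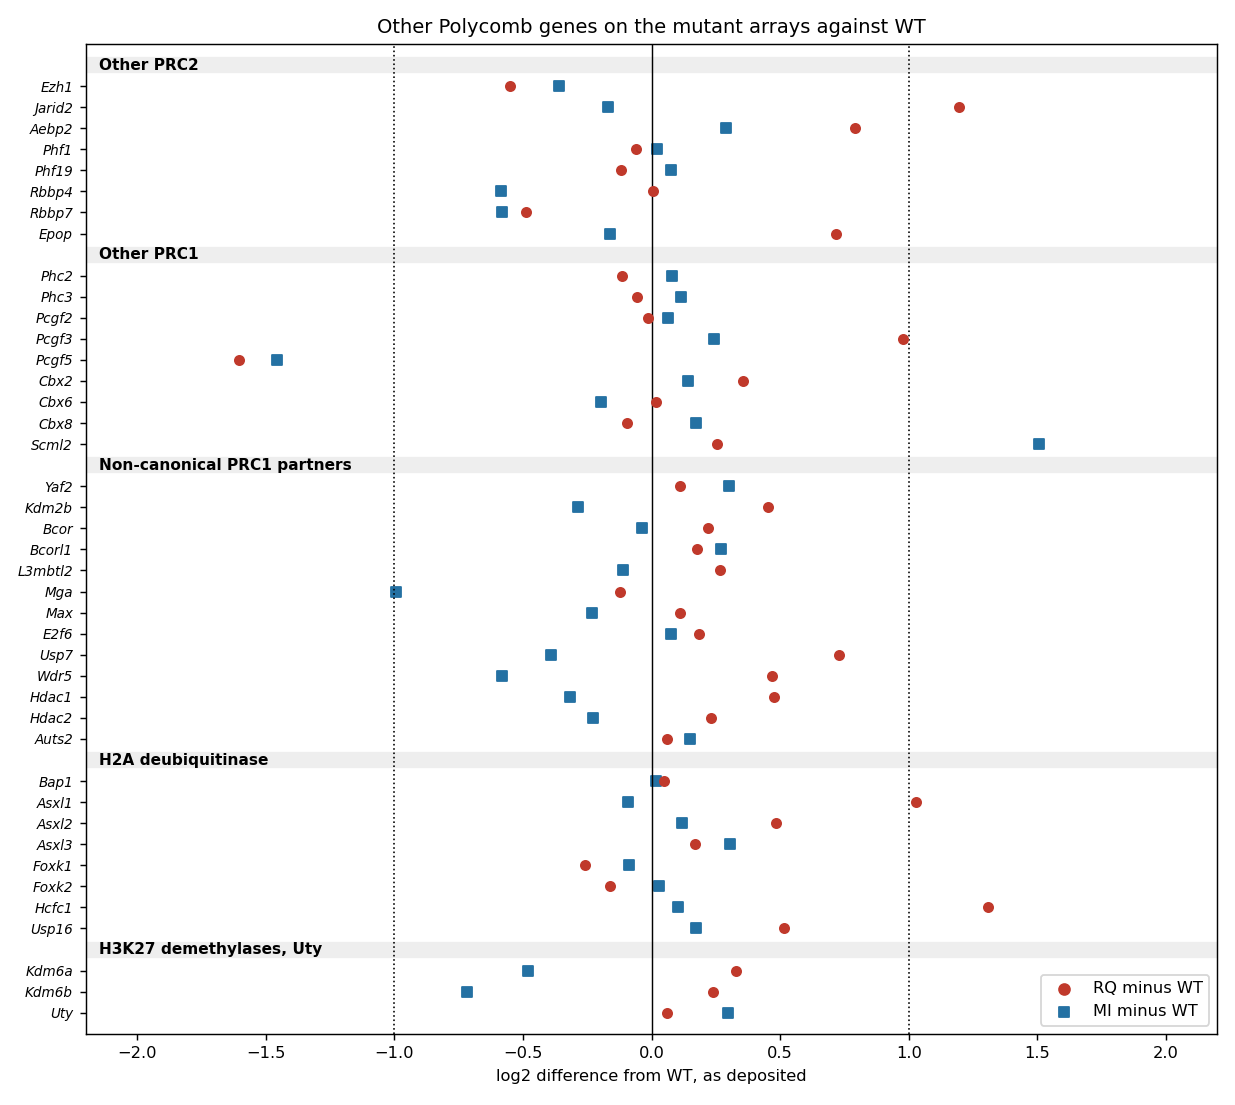
Log2 differences from WT (horizontal axis, as deposited) of other Polycomb genes that reached the level filter on any array, with RQ as circles and MI as squares and dotted lines at 2-fold. Jarid2, Hcfc1 and Asxl1 are past 2-fold on the higher side in RQ, Scml2 in MI, and Pcgf5 is past it on the lower side in both.

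Of the other PRC1 genes 9 of 11 on the array passed the filter, with a median of -0.02 in RQ and 0.11 in MI. Scml2, a PRC1-associated protein of the germline, was the highest in MI, at 7.72 in RQ, 8.97 in MI and 7.46 in WT. Its 2 probe sets differed from WT by 1.51 and 2.11 in MI and by 0.25 and 0.65 in RQ. Pcgf5, a non-canonical Pcgf protein, was lower in both mutants, at 8.06 in RQ, 8.21 in MI and 9.67 in WT. Its other probe sets, at 6.87 or below, did not share this (0.08 and 0.15 in RQ). Pcgf3 differed by 0.98 in RQ and 0.24 in MI, but its other probe set that reached the filter differed by only 0.06 in RQ and 0.18 in MI. The chromodomain genes that are known to take the place of Cbx7 on differentiation were closer to WT: Cbx2 differed by 0.35 in RQ and 0.14 in MI, and Cbx8, near the filter, by -0.09 in RQ and 0.17 in MI.

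Among partners of non-canonical PRC1, 12 of 13 were above 0 in RQ against WT, with a median of 0.22, where 51.7% of all genes were above 0 and their median was 0.01. In MI 4 of 13 were above 0, with a median of -0.23 (-0.09 after the correction), where 59.5% of all genes were above 0 and their median was 0.06. By the probe set used, none of them (0 of 13) was past 2-fold from WT on either array. Among all genes 1.68% were 2-fold higher and 1.49% lower in RQ, and 0.516% higher and 2.44% lower in MI. Kdm2b, which brings PRC1 to CpG islands, differed by 0.45 in RQ and -0.28 in MI. Mga, the DNA-binding partner of Pcgf6, differed by -0.12 in RQ and -0.99 in MI, and its second probe set above 7 by 0.31 in RQ and -0.47 in MI. Yaf2, which takes the place of Rybp, was the highest in MI (0.11 in RQ and 0.30 in MI). The deubiquitinase Usp7 (0.73 in RQ and -0.39 in MI) and the WD-repeat protein Wdr5 (0.47 in RQ and -0.58 in MI) exceeded 2-fold between RQ and MI, with log2 differences of 1.12 and 1.05 (2 of 13, against 1.98% of all genes). After the correction for level these were 0.86 and 0.74, so neither remained past 2-fold by the probe set used. The 7 Usp7 probe sets were not alike, since 1 of them differed from WT by -1.14 in both mutants. As deposited, the Usp7 probe sets not used differed between RQ and MI by 1.68, 1.56, 1.05, 0.01, -0.003 and -0.13. The first of these differed from WT by 1.09 in RQ. The correction for level was not applied to them.

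Enzymes that undo or oppose the Polycomb marks were read as well. Among 8 genes of H2A deubiquitination, 2 passed 2-fold on the higher side in RQ relative to WT (1.68% of all genes): Hcfc1, a Bap1 partner (1.31 in RQ and 0.10 in MI), and Asxl1, the activating subunit of Bap1 (1.03 in RQ and -0.09 in MI). Each call rests on 1 probe set, since the other 2 that reached the filter differed in RQ by 0.78 and 0.55 for Hcfc1 and by 0.64 and 0.20 for Asxl1. Bap1 itself, the deubiquitinase, differed little (0.05 in RQ and 0.02 in MI). Asxl3 was the highest in MI (0.30), Foxk1 the lowest in RQ (-0.26), and Foxk2 the lowest in RQ relative to MI (-0.19). The direction for Foxk2 depends on the probe set, since 3 of its 5 were higher in RQ than in MI, by 0.21, 0.28 and 0.37. By the probe set used, the H3K27 demethylases Kdm6a and Kdm6b were lower in MI (-0.48 and -0.72) and above WT in RQ (0.33 and 0.24). Other Kdm6a probe sets that reached the filter differed by -0.22 and -0.04 in MI and by 0.48 and -0.13 in RQ. For Kdm6b such a probe set differed by only -0.20 in MI and 0.04 in RQ. Their Y-linked relative Uty, near the filter, differed by 0.30 in MI and 0.06 in RQ. Of 11 trithorax and H3K4 methyltransferase genes, 9 were above 0 in RQ with a median of 0.27, where 51.7% of all genes were above 0 and their median was 0.01. Kmt2c was the highest in RQ (0.88) and Setd1a the lowest (-0.01), and Ash2l was the lowest in MI at -1.002 as deposited and -0.64 after the correction, while Men1 was the highest there (0.30). The second Ash2l probe set differed by 0.13 in MI.

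Known Polycomb targets in stem cells, were taken from a list of 42 homeobox and other developmental genes. Of 39 on the array 23 passed the filter, and these had a median of 0.01 in RQ and 0.17 in MI (0.07 after the correction). Tbx3, which is also a stem cell factor, was the 1 gene past 2-fold in RQ (1 of 23, against 1.68% higher among all genes), at 8.56 in RQ, 7.78 in MI and 6.96 in WT. In MI 0 of 23 were past 2-fold by the probe set used, against 0.516% of all genes higher and 2.44% lower. Other probe sets of Sox17 and Gata6, a pair of endoderm factors, were past it on the lower side in both mutants: 1 for Sox17 (-1.43 in RQ and -1.47 in MI) and 1 for Gata6 (-1.06 in RQ and -1.08 in MI). The cell cycle inhibitor Cdkn2b differed by 0.01 in RQ and 0.49 in MI, and Cdkn2a lay below the filter on every array. Hoxa5 read 8.99 in RQ, 9.29 in MI and 9.06 in WT by the probe set used, which ends in _x_at. Its other probe set read 6.17 in RQ, 6.42 in MI and 6.11 in WT, near the filter, so a high level of Hoxa5 rests on 1 probe set. By the probe set used, Sox17 was the lowest in RQ (-0.26) and differed by 0.01 in MI, and Hand2 was the lowest in MI (-0.03).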

How the data were processed

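The deposited values are log2 signals of 45101 probe sets on 3 arrays. The submitters' processing notes name Partek and RMA with no version, and the sources used here do not say whether further arrays entered the normalization. Per the labels, 6 ug of total RNA was labelled per sample. No batch was examined, since scan dates were not used here. The platform annotation gave the names: 34958 probe sets had 1 symbol, 932 several and 9211 none, and 64 controls were set apart. Differences of log2 signals were computed in Python 3.11.15, with a lowess from statsmodels 0.14.6 (fraction 0.3, 3 robustness iterations), tested on simulated data. The members and gene lists were chosen with earlier results of these data known. Of each other list, genes at least 2-fold apart and the extremes were to be named, and further names (Epop, Rbbp7, Kdm2b, Cbx2, Cbx8, Bap1, Hoxa5 and Cdkn2a) were chosen after their values were seen. Marker lists are given by counts and sums of linear signal. Alternatives were array centring, quantile normalization, lowess, means of probe sets, no _s_at or _x_at probe sets, other filters and a 1.5-fold limit. With 1 array per genotype there is no estimate of error, and precision is limited by the number of arrays.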

Additional observations from a re-analysis of the deposited data

How the results depend on the processing

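No paired analysis was possible because each genotype has 1 array. Means of a gene's probe sets, which bring in sets with little signal, gave 0 members 2-fold higher in RQ than in WT, with Mtf2 at 0.96, and 1 member 2-fold higher in RQ than in MI. Quantile normalization and lowess each gave 1 member 2-fold higher in MI than in WT. The median of RQ minus MI was 0.38 with quantile normalization, 0.41 with lowess and 0.44 with means of probe sets. At a 1.5-fold limit the counts were 3 higher in RQ against WT, 1 higher and 2 lower in MI against WT, and 6 higher in RQ against MI. The other medians moved by less than 0.2 and the other counts stayed within 1.5 times. Of 30 single differences per alternative, 0 moved by 0.2 or more with array centring, 13 with quantile normalization, 12 with lowess, 10 with means of probe sets and 2 without _s_at and _x_at probe sets. None that was past 2-fold changed sign under these 5 alternatives. Depth of signal limits Ring1 and Bmi1 most, and nothing here measures the spread between cultures.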
